A study of Mus musculus with 4 samples.

Results

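The extracellular matrix gene group described here holds 9 genes of 54532 in the count table. Its members are the collagen chains Col1a1, Col1a2, Col3a1 and Col6a2, the matrix glycoproteins Fn1, Tnc and Sparc, the proteoglycan Dcn and the collagen crosslinking enzyme Lox. The genes were chosen by name, with their read ratios in these same libraries already known, so their values are a description and support nothing beyond themselves. Each of the 9 symbols had 1 row in the table, and all 9 passed the filter of at least 10 reads in at least 1 library, which kept 13715 genes.

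The libraries were made from peritoneal macrophages of WT mice, taken from peritoneal fluid. Cells were kept in normal medium (0% 4T1) or in 30% 4T1 conditioned medium (4T1-CM), which is medium that 4T1 mouse mammary carcinoma cells had grown in, and each medium was combined with the solvent DMSO or with CH223191 at 10 µM, an antagonist of the aryl hydrocarbon receptor (AHR). The 4 conditions had 1 library each, so there is no replicate check and no test was made. Per the methods of the study, peritoneal macrophages came from BALB/c mice injected with thioglycollate, were left to adhere and were pre-treated with the compound before 4T1-CM was added. No sort of these cells is named, and how long the sequenced cells were treated is not given in the sources used here.

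Fibroblasts are the main makers of interstitial matrix in most tissues. Type I collagen, encoded by Col1a1 and Col1a2, and type III collagen, encoded by Col3a1, form fibrils, and type VI collagen, to which Col6a2 contributes, forms beaded filaments around cells. Fibronectin (Fn1) is a cell-binding glycoprotein that macrophages also make. Tenascin C (Tnc) and SPARC modulate cell adhesion, decorin (Dcn) binds collagen fibrils, and lysyl oxidase (Lox) oxidises lysines so that collagen and elastin can be crosslinked.

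The collagen members share a coding sequence in which a glycine codon recurs at every triplet, the repeat that lets collagen chains wind into a helix, and the fibrillar chains differ from the type VI chain in how long that repeat runs. Read from the GENCODE M21 transcripts of GRCm38, the longest unbroken run of such triplets was 338 in Col1a1, 339 in Col1a2, 344 in Col3a1 and 87 in Col6a2. The first 10 triplets of each run, 90 bases, are shown with the glycine codon that opens each triplet in capitals.
Col1a1: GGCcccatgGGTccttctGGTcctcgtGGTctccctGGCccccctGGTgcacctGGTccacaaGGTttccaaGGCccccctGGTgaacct
Col1a2: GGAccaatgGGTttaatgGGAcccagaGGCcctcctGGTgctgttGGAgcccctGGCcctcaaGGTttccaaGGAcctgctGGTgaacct
Col3a1: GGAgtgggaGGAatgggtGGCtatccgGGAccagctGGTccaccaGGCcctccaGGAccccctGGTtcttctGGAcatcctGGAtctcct
Col6a2: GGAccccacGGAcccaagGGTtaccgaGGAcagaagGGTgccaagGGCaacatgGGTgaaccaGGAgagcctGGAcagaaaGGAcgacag
The stretches were compared base by base from the start of each run, without alignment. Col1a1 and Col1a2 had 63 of the 90 bases in common, Col1a1 and Col3a1 had 45, and Col1a2 and Col3a1 had 44. The GG of each glycine codon matches by construction, so these counts do not measure how related the chains are.

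Promoter sequences from RefSeq (GRCm38.p6), from 250 bases before to 50 after a start site, matched 5 of the 9 members with 7 windows. They are shown for all 5, Col1a2, Col3a1, Col6a2, Tnc and Sparc, which had fewer reads with CH223191 in both media, to set the letters of the AHR site beside their values. In 4T1-CM the counting intervals of the log2 ratio, explained below, held 0 for Col1a2 (-0.24 to 0.01) and Sparc (-0.20 to 0.12). Of the 2 windows each of Col6a2 and Tnc, the one with more motif matches is printed. Letters were searched on both strands, and matches are in capitals: GCGTG is the core of the site bound by AHR and its partner ARNT. The others were CCAAT (the CCAAT box), TATAAA (the TATA box) and TGANTCA (the AP-1 site).
Col1a2: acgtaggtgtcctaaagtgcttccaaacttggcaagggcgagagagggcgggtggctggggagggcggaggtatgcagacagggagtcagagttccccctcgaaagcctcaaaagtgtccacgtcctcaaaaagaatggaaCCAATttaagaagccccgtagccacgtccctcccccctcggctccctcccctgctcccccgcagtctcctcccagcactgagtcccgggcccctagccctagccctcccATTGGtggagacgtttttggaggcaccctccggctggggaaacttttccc
Col3a1: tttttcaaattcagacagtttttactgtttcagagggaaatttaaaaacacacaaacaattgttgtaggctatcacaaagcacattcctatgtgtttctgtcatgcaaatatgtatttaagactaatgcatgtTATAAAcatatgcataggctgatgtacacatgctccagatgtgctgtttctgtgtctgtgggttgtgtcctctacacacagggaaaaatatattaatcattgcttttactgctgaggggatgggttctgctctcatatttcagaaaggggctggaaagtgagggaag
Col6a2: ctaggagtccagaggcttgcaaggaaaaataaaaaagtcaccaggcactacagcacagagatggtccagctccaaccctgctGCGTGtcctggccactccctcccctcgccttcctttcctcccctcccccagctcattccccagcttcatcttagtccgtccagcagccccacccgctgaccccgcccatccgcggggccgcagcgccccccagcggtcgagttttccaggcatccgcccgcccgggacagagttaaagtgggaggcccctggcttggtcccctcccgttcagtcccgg
Tnc: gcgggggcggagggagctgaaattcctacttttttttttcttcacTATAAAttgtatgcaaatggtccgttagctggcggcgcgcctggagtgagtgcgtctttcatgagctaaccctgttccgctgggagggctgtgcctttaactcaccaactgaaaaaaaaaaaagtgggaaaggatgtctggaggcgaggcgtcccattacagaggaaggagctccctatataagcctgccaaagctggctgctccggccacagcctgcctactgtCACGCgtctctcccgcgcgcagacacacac
Sparc: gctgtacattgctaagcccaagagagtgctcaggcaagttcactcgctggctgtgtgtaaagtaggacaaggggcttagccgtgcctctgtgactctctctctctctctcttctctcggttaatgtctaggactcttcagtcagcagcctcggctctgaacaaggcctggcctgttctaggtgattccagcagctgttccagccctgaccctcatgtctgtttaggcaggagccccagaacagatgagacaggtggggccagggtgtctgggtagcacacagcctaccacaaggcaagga
The windows lie at chr6:4505368-4505667, plus strand, chr1:45311288-45311587, plus strand, chr10:76623355-76623654, minus strand, chr4:64046887-64047186, minus strand, and chr11:55420031-55420330, minus strand. GCGTG was found in 1 of the 2 windows of Col6a2 and, on the other strand, in 1 of the 2 windows of Tnc, and in none of those of Col1a2, Col3a1 and Sparc. The windows of Col6a2 and Tnc at the 5′ end of the gene in the table, not printed, held no GCGTG. The printed start sites lie 804 bases from that end in Col1a2, 0 in Col3a1, 226 in Col6a2, 79 in Tnc and 3103 in Sparc. Of 32851 mouse promoters of this length, 32.4% hold GCGTG, 37.4% CCAAT, 13.6% TATAAA and 7.81% TGANTCA. The window of Sparc held none of the 4 motifs. A match describes letters only.

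Read counts of a gene are given below in the order normal medium with DMSO, normal medium with CH223191, 4T1-CM with DMSO and 4T1-CM with CH223191. The libraries held between 15535405 and 17557127 counted reads. Levels are CPM, the reads of a gene scaled to library size after TMM normalisation, and a ratio is a log2 ratio of CPM after a prior count of 0.5. The interval in brackets is the exact Clopper-Pearson 95% interval of how the reads split between 2 libraries, and it covers counting error only. A gene is called higher or lower when the ratio reaches 2-fold. In bulk RNA, fewer cells of a type and less RNA per cell cannot be told apart.

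With 4T1-CM, most of the matrix genes had more reads than in normal medium. With DMSO, 7 of the 9 members were at least 2-fold higher, where 12.2% of all genes were, and with CH223191 the same 7 were, where 12.0% of all genes were. Of all genes, 8.19% were higher in both comparisons. None of the members was at least 2-fold lower, against 6.11% of all genes with DMSO, 7.86% with CH223191 and 3.38% in both. The median log2 ratio of the members was 1.28 with DMSO and 1.59 with CH223191, beside 0.01 and 0.02 over all genes. Without Fn1, the reads of the other 8 members summed to 1269, 679, 5195 and 3556.

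The type I collagen chains were among the more abundant of the low-count members. Col1a1 (chr11:94936224-94953042, plus strand, 51 exons in its longest coding transcript) had 359, 118, 958 and 704 reads, or 22.5, 7.42, 54.7 and 43.3 CPM. Both 4T1-CM libraries lay above both normal medium libraries, and the lowest value was in normal medium with CH223191. How many of all genes had this order was not counted. The log2 ratio of 4T1-CM to normal medium was 1.28 (1.10 to 1.46) with DMSO and 2.54 (2.26 to 2.84) with CH223191. Col1a2 (chr6:4504814-4541544, plus strand, 52 exons) had 429, 243, 1117 and 955 reads, in the same order of libraries as Col1a1. Its ratio was 1.24 (1.08 to 1.41) with DMSO and 1.94 (1.74 to 2.15) with CH223191.

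Col3a1 (chr1:45311538-45349706, plus strand, 51 exons) encodes the chain of type III collagen and had 88, 24, 284 and 202 reads. Its ratio was 1.55 (1.21 to 1.92) with DMSO and 3.02 (2.43 to 3.72) with CH223191. The 24 reads in normal medium with CH223191 are the denominator of the larger ratio, and the same library is compared with DMSO in the account of CH223191. Col6a2 (chr10:76595762-76623630, minus strand, 28 exons) did not go the way of the fibrillar chains. It had 39, 16, 31 and 12 reads, and its 4T1-CM ratio was -0.46 (-1.20 to 0.25) with DMSO and -0.43 (-1.66 to 0.73) with CH223191. Both intervals hold 0, so a difference was not detectable at this depth.

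**Figure D1:**
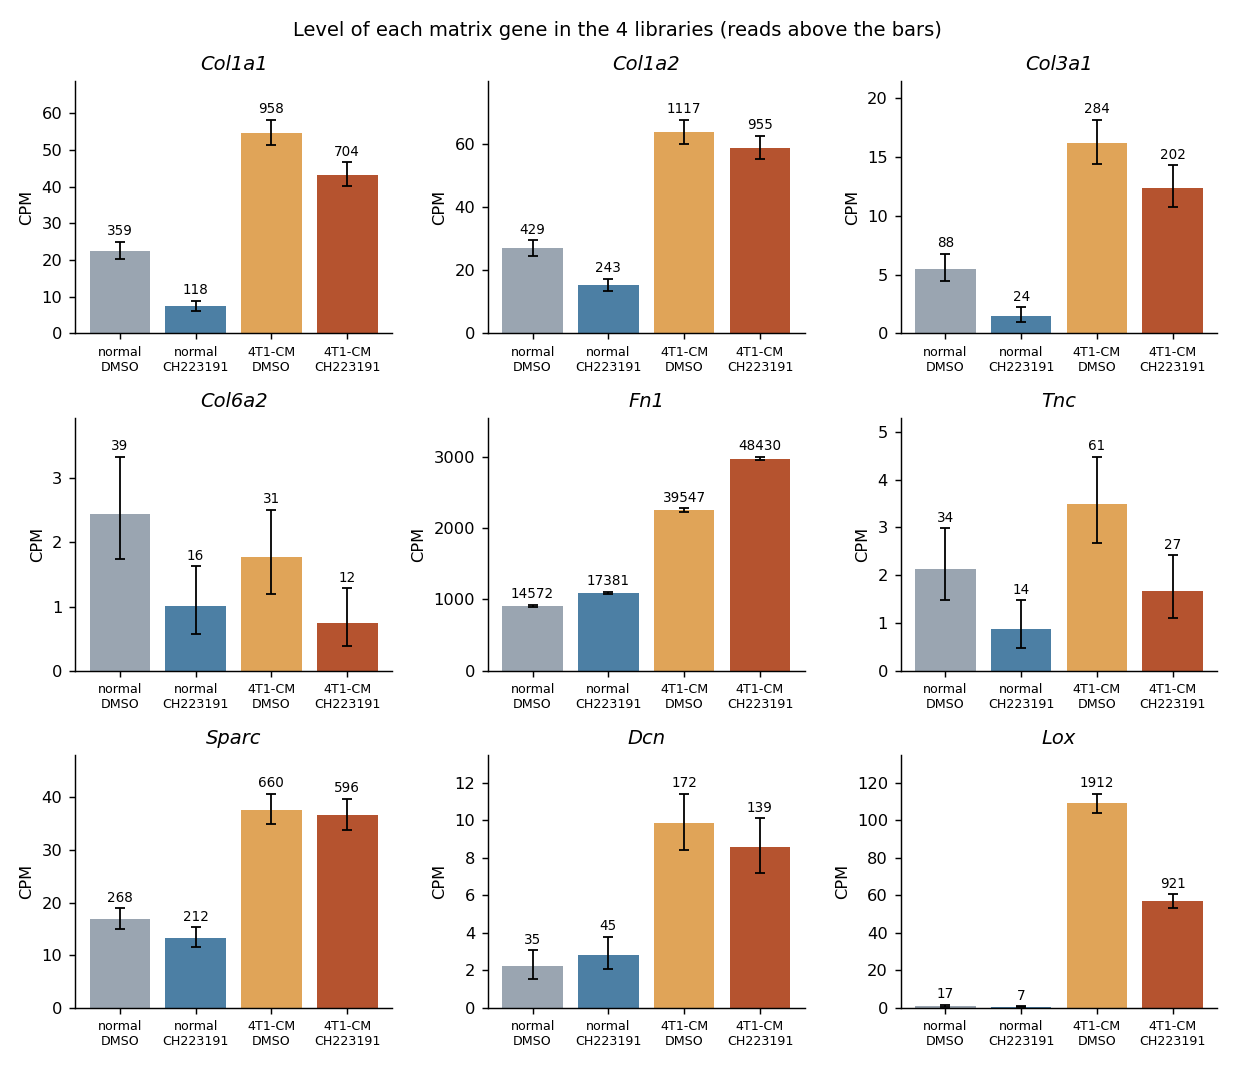
CPM of each of the 9 matrix genes (linear axis, one panel a gene) in the 4 libraries, with the exact 95% interval of counting error as bars and the reads above them. Fn1 is the most abundant at 914 to 2981 CPM, Lox is near 0 in both normal medium libraries and at 109 and 56.7 CPM in 4T1-CM, and Col6a2 lies at 0.739 to 2.45 CPM in all 4.

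Fibronectin was the most abundant member by far. Fn1 (chr1:71585520-71653200, minus strand, 46 exons) had 14572, 17381, 39547 and 48430 reads and ranked 103, 93, 28 and 20 among the genes kept. It held between 88.4% and 96.2% of the reads of the 9 members. Its 4T1-CM ratio was 1.31 (1.28 to 1.33) with DMSO and 1.45 (1.42 to 1.47) with CH223191. Fn1 and Dcn were the members that had more reads with CH223191 in normal medium, and Fn1 alone had more in 4T1-CM.

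SPARC and decorin were also higher with 4T1-CM. Sparc (chr11:55394500-55423183, minus strand, 10 exons) had 268, 212, 660 and 596 reads, and its ratio was 1.16 (0.96 to 1.38) with DMSO and 1.46 (1.23 to 1.69) with CH223191. Dcn (chr10:97479609-97518143, plus strand, 8 exons) had 35, 45, 172 and 139 reads, and its ratio was 2.15 (1.63 to 2.73) and 1.59 (1.10 to 2.12). Tenascin C gave a smaller difference. Tnc (chr4:63959785-64047015, minus strand, 26 exons) had 34, 14, 61 and 27 reads, and its ratio was 0.70 (0.08 to 1.36) with DMSO and 0.89 (-0.07 to 1.96) with CH223191, short of 2-fold in both.

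Lysyl oxidase had the largest ratio of the 9 members in both comparisons. Lox had 17, 7, 1912 and 921 reads, or 1.07, 0.440, 109 and 56.7 CPM. Both 4T1-CM libraries lay above both normal medium libraries, an order whose share among all genes was not counted. The log2 ratio was 6.64 (6.00 to 7.46) with DMSO and 6.91 (5.96 to 8.33) with CH223191, which ranked 20 and 18 from the highest among 13715 genes. Within 4T1-CM, Lox took 36.8% of the reads of the members other than Fn1 with DMSO and 25.9% with CH223191, against 1.34% and 1.03% in normal medium. Its gene lies on chromosome 18 between 52516069 and 52529867, a place that differs from GENCODE M21, whereas the other 8 members have the positions of that annotation.

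**Figure D2:**
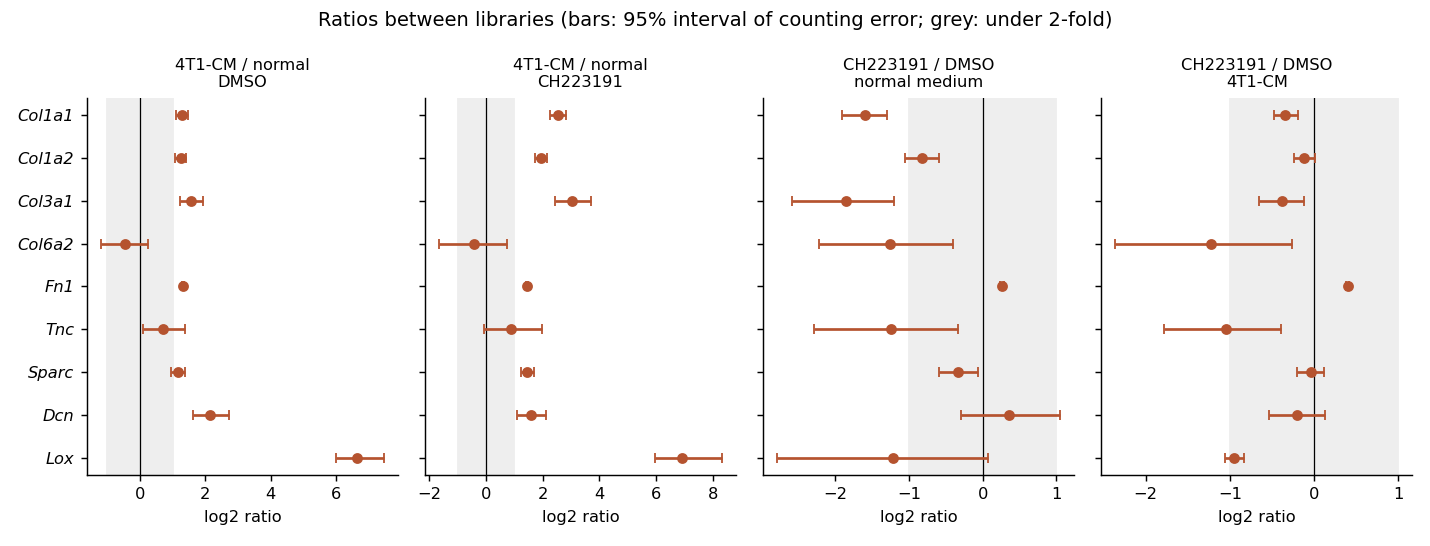
Log2 ratio of each matrix gene (horizontal axis) in the 4 comparisons of 2 libraries, with the exact 95% interval of counting error as bars and grey marking ratios under 2-fold. In the left 2 panels 7 genes lie to the right of the grey band and Lox farthest, at 6.64 and 6.91, and in normal medium 5 genes lie to the left of it with CH223191.

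With the AHR antagonist, several matrix genes had fewer reads in normal medium, and the ratios of Col1a1, Col1a2 and Col3a1 were nearer to 0 in 4T1-CM. In normal medium, 5 of the 9 members were at least 2-fold lower with CH223191 (Col1a1, Col3a1, Col6a2, Tnc and Lox), where 3.31% of all genes were. With a prior count of 5, 4 were, since Lox then had a ratio of -0.87. In 4T1-CM, 2 were (Col6a2 and Tnc), where 2.66% of all genes were, and the pair was lower in both media, where 0.481% of all genes were. With a prior count of 5, 0 members were lower in 4T1-CM, which also ends the call in both media. No member was at least 2-fold higher, against 4.84% of all genes in normal medium, 2.75% in 4T1-CM and 0.649% in both. The members had a median log2 ratio of -1.22 in normal medium, against -0.34 in 4T1-CM, beside 0.00 over all genes in both.

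Col3a1 and Col1a1 had the lowest ratios of the members in normal medium, and Col1a2 stayed under 2-fold. The log2 ratio of CH223191 to DMSO was -1.60 (-1.91 to -1.30) for Col1a1, -0.82 (-1.05 to -0.59) for Col1a2 and -1.85 (-2.59 to -1.21) for Col3a1. In 4T1-CM it was -0.34 (-0.48 to -0.19), -0.12 (-0.24 to 0.01) and -0.38 (-0.65 to -0.12). The difference between the media, 4T1-CM minus normal, was 1.26 (0.93 to 1.61) for Col1a1, 0.70 (0.43 to 0.96) for Col1a2 and 1.47 (0.76 to 2.25) for Col3a1, each with the exact conditional interval of its 4 counts. The interval did not reach 0 for these 3 chains and for Fn1 (0.14, 0.11 to 0.18). It held 0 for Col6a2 (0.03, -1.41 to 1.42), Tnc (0.19, -0.99 to 1.44), Sparc (0.29, -0.02 to 0.61), Dcn (-0.56, -1.33 to 0.19) and Lox (0.27, -1.02 to 1.85). With 1 culture a condition the spread of such ratios between cultures was not measured. The share of all genes whose interval leaves out 0 was not counted. With total counts the difference of Fn1 was 0.19, outside its interval.

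Col6a2 and Tnc were lower with CH223191 in both media at few reads. The ratio of Col6a2 in normal medium was -1.26 (-2.22 to -0.41), and in 4T1-CM it was -1.23 (-2.36 to -0.26), while that of Tnc was -1.25 (-2.29 to -0.34) and -1.05 (-1.78 to -0.39). With a prior count of 5 in place of 0.5, neither reached 2-fold in 4T1-CM. Lox had a ratio of -1.22 (-2.79 to 0.07) in normal medium, from 7 against 17 reads, and of -0.95 (-1.06 to -0.83) in 4T1-CM, from 921 against 1912 reads. Fn1 went the other way, at 0.26 (0.23 to 0.29) and 0.40 (0.38 to 0.42). Sparc had -0.33 (-0.60 to -0.07) and -0.04 (-0.20 to 0.12). Dcn had 0.36 (-0.30 to 1.05) and -0.20 (-0.53 to 0.13), with 0 inside both intervals.

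The level of the ratios also differed with gene length in some comparisons. In normal medium, the 6673 genes of 3788 to 12426 bases, the span of the members' deposited lengths, had a median ratio of CH223191 to DMSO of -0.04, and 2.05% of them were at least 2-fold lower. The 6441 shorter genes had a median of 0.09. In 4T1-CM, the median of that ratio was 0.00 in both length classes. For 4T1-CM against normal medium they were 0.05 and -0.06 with DMSO and 0.10 and -0.13 with CH223191. The part of length in the members' ratios was not tested.

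The members did not keep a fixed ratio to one another. Set against the reads of Col1a2 in the same library, the ratio of Sparc varied 1.48-fold between the highest and the lowest library, that of Col1a1 1.77-fold and that of Fn1 2.10-fold. The ratio of Dcn varied 2.27-fold, of Col3a1 2.57-fold, of Tnc 2.80-fold and of Col6a2 7.21-fold. Lox had from 0.0288 to 1.71 reads per read of Col1a2, a 59.4-fold span. Col1a1 had 0.837 and 0.486 reads per read of Col1a2 in normal medium with DMSO and CH223191, and 0.858 and 0.737 in 4T1-CM.

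**Figure D3:**
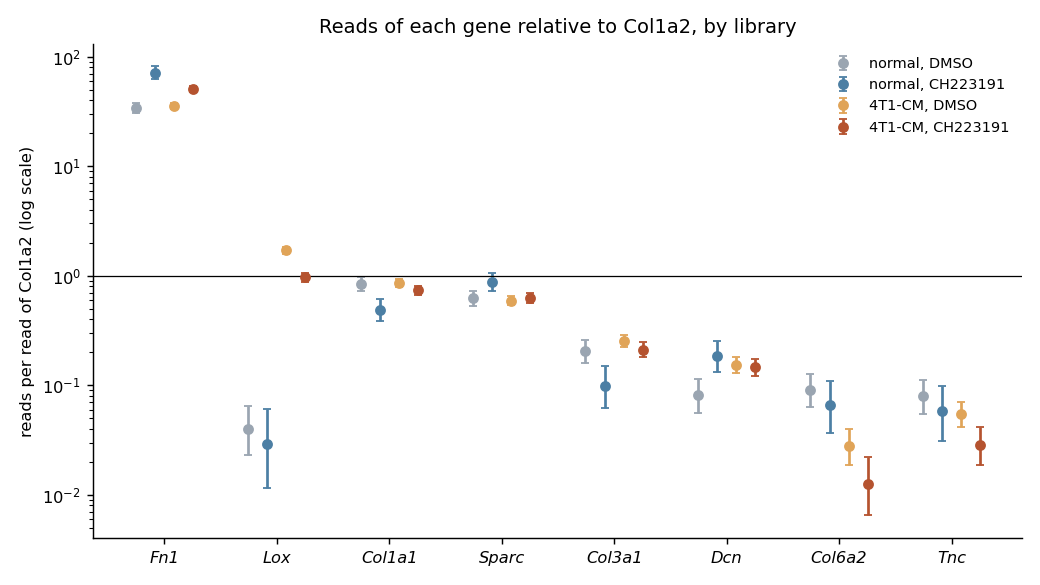
Reads of 8 matrix genes per read of Col1a2 (log axis) in the 4 libraries, with exact 95% intervals. Lox stands at 0.0396 and 0.0288 in the normal medium libraries and at 1.71 and 0.964 in those with 4T1-CM, Col6a2 goes from 0.0909 to 0.0126, and Sparc stays between 0.591 and 0.872.

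Levels per length gave Fn1 first in every library. Per kb of the deposited length, Sparc came second in both normal medium libraries and Lox second in both 4T1-CM libraries. By the longest protein-coding transcript, Sparc was second and Lox came after it in 4T1-CM with CH223191. Fn1 stood at 78.2, 93.5, 193 and 255 CPM per kb, and Sparc at 4.44, 3.52, 9.95 and 9.69. Type I collagen holds more of the Col1a1 chain than of the Col1a2 chain, but the order of the 2 genes here depended on the length used. By the deposited length, which counts all exons of a gene, Col1a1 was 1.58, 0.919, 1.62 and 1.40 times the level of Col1a2 per kb. By the longest protein-coding transcript it was 0.755, 0.438, 0.773 and 0.665 times that level, a length chosen after the values were seen.

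The other genes of the matrix were taken from lists of collagen chains, collagen processing genes, matricellular genes and receptors. Over all genes, 8.19% were at least 2-fold higher with 4T1-CM in both comparisons and 3.38% were lower in both. Of 40 other collagen chains, 20 were kept and 8 were at least 2-fold higher with 4T1-CM in both comparisons (Col4a1, Col5a1, Col5a2, Col5a3, Col12a1, Col14a1, Col18a1 and Col27a1). Of these, Col5a3, Col12a1, Col14a1 and Col27a1 passed the read filter only through 4T1-CM libraries. Col5a3 had 8, 2, 50 and 32 reads, Col12a1 had 9, 4, 53 and 28, and Col27a1 had 4, 3, 32 and 25. Col14a1 had 1, 2, 9 and 15 and passed only through 4T1-CM with CH223191, so its call carries no weight. Col5a1, a chain of the fibril-forming type V collagen, had 54, 30, 228 and 173 reads. The chains Col4a5, Col6a6 and Col23a1 were lower in both, and Col6a6 had 71, 55, 9 and 20 reads. Among the 4 most abundant chains beside Col4a1 and Col5a1, Col24a1 had ratios of 0.47 and 0.19 and Col20a1 of -0.05 and 0.40 (DMSO, CH223191). The type VI chains Col6a1 (55, 42, 30 and 30 reads) and Col6a3 (23, 16, 27 and 15) were not 2-fold higher, nor was Col6a2. The median ratio of the 20 chains was 0.81 with DMSO and 1.44 with CH223191, and 11 chains had 0 reads in all 4 libraries.

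Among 21 kept genes of collagen synthesis and crosslinking, 4 were higher with 4T1-CM in both comparisons. P4ha2, a prolyl hydroxylase subunit, had 85, 81, 341 and 308 reads, and Plod2, a lysyl hydroxylase, had 9, 16, 76 and 84. Bmp1, which trims procollagen, had 35, 19, 178 and 171, and Loxl2, a relative of Lox, had 5, 8, 122 and 87. Loxl2 passed the read filter only through the 4T1-CM libraries. The most abundant of the list, P4hb, Colgalt1, Plod3 and P4ha1, had ratios under 2-fold. The median ratio of the list was 0.46 with DMSO and 0.37 with CH223191. None of the list was at least 2-fold lower with 4T1-CM.

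Matricellular genes and receptors included some of the largest differences beside Lox. Of 15 kept proteoglycan and matricellular genes, 10 were higher with 4T1-CM in both comparisons (Bgn, Thbs1, Thbs2, Thbs3, Cyr61, Ctgf, Vcan, Fbn1, Fbln2 and Tgfbi) and Postn was lower. Tgfbi, a secreted protein that binds collagen, had 46, 34, 10571 and 8072 reads, and thrombospondin 1 (Thbs1) had 615, 590, 16561 and 15619. Cyr61 had 8, 2, 57 and 53 reads and, like Thbs3, reached 10 reads only with 4T1-CM. Thbs3 had 0, 4, 6 and 10 reads, so its call with DMSO rests on the prior count. The median ratio was 2.21 with DMSO, or 2.03 with that 0 set to the floor of 3 reads, and 1.96 with CH223191. Spp1, osteopontin, was the most abundant, at 103623, 116341, 148009 and 165870 reads, with a ratio of 0.38 with DMSO, and Efemp2, a fibulin family gene, had 0.51 with DMSO and with CH223191. Of 15 kept receptors, 7 were higher in both (Itga1, Itga2, Itga5, Itga9, Ddr1, Ddr2 and Sdc4). Itga2 had 3, 2, 8 and 11 reads and passed the filter only through 4T1-CM with CH223191, so its call carries no weight. Itga5, part of the main fibronectin receptor, had 3007, 2853, 6973 and 5831 reads, and Itgb1, its partner chain, had 12006, 9369, 11326 and 10271. The other abundant receptors, Cd44 (-0.01 and 0.05) and Itgav (0.04 and 0.57), had ratios under 2-fold. With CH223191, 2 receptors were lower with 4T1-CM, Lair1 (-0.89 with DMSO and -1.31 with CH223191) and Itgb3 (1080, 1011, 610 and 516 reads), and the collagen-binding receptor Mrc1 had -0.78 and -0.62.

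The same lists were read for CH223191 against DMSO. Of all genes, 3.31% were at least 2-fold lower and 4.84% higher in normal medium, and 2.66% lower and 2.75% higher in 4T1-CM. In normal medium, 3 of the 20 other collagen chains were at least 2-fold lower and none higher, and of the 15 matricellular genes 4 were lower and 2 higher. The lower ones were Col5a3 (8 to 2 reads), Col7a1 (7 to 1) and Col12a1 (9 to 4), and Cyr61 (8 to 2), Ctgf (18 to 7), Fbn1 (25 to 11) and Fbln5 (57 to 26). Col5a3, Col7a1, Col12a1 and Cyr61 passed the read filter only through 4T1-CM libraries, so both normal medium libraries lay below it. Their calls rest on few reads and are given without a counting interval. The share of lower chains is therefore not read as an excess over all genes. The higher ones were Thbs2 (3 to 22) and Thbs3 (0 to 4, a call that rests on the prior count). In 4T1-CM, 3 collagen chains were higher, Col6a6 (9 to 20 reads), Col7a1 (5 to 11) and Col11a2 (7 to 19). Col7a1 and Col11a2 passed the read filter only through 4T1-CM with CH223191, so their calls carry no weight. No matricellular gene passed 2-fold either way in 4T1-CM. No gene of collagen synthesis and no receptor passed 2-fold in either medium. The median ratios in normal medium were -0.34 for the chains, -0.05 for synthesis, -0.27 for the matricellular genes and -0.21 for the receptors, and in 4T1-CM they were 0.03, 0.01, 0.00 and -0.01.

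**Figure D4:**
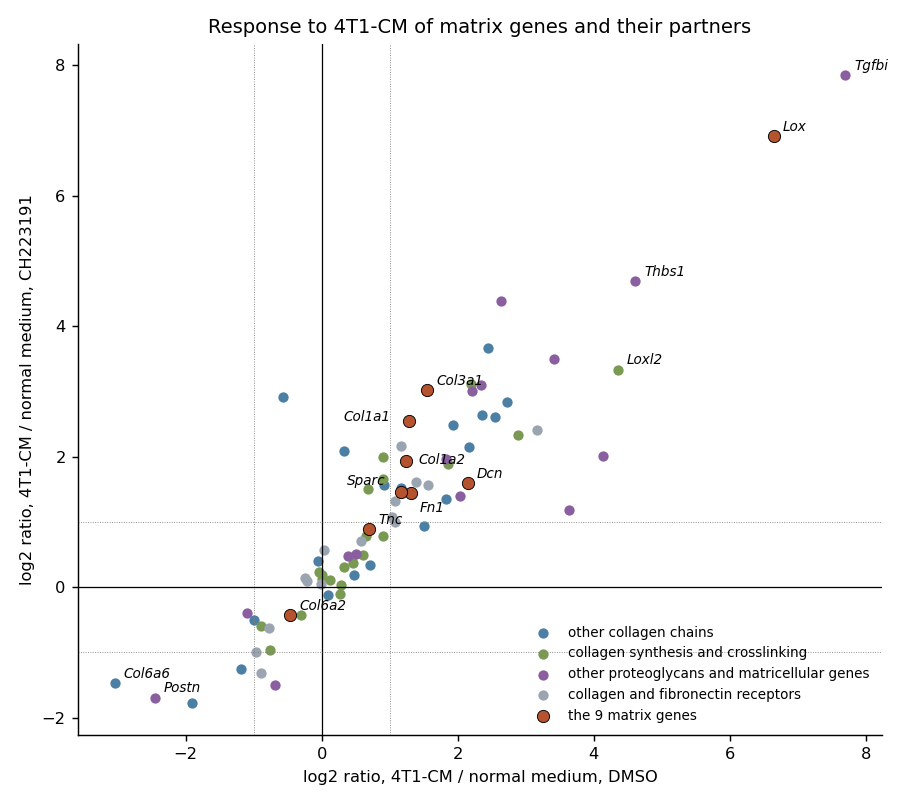
Log2 ratio of 4T1-CM to normal medium with DMSO (horizontal axis) against the ratio with CH223191 (vertical axis) for the 9 matrix genes and the kept genes of 4 lists, with dotted lines at 2-fold. Tgfbi, Lox and Thbs1 lie farthest to the upper right, and Col6a6 and Postn to the lower left.

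Markers of other cell types were read beside the matrix genes. All 9 macrophage markers passed the filter, and they summed to 14723, 18848, 41035 and 43840 CPM. Lyz2, lysozyme, gave 11888, 15185, 32957 and 35572 CPM of these sums. Of the 9, 5 were at least 2-fold higher with 4T1-CM with DMSO, where 12.2% of all genes were. In both comparisons 4 were (Adgre1, Lyz2, Fcgr1 and Cd14), where 8.19% of all genes were. The list had a median ratio of 1.03 with DMSO and 0.98 with CH223191. Of 24 fibroblast markers that are not members, 17 were kept. Of these, 9 were at least 2-fold higher with 4T1-CM in both comparisons, where 8.19% of all genes were. Lower in both was 1, Postn, where 3.38% of all genes were. The median ratio of the 17 was 1.16 with DMSO and 1.62 with CH223191. The list shares genes with the matrix lists above, and Col5a1, Col5a2, Fbn1, Bgn and Postn are counted in both. With CH223191 in normal medium, 3 of the 17 were lower (Pdgfrb, Fbn1 and Cdh11), where 3.31% of all genes were. There 1 was higher (Thy1, from 0 to 1 read, which rests on the prior count), where 4.84% of all genes were. Pdpn, which macrophages also make, gave 82.2% to 91.1% of the reads of that list. Without it, the list summed to 38.3, 26.8, 86.9 and 78.1 CPM, beside 79.6, 42.7, 297 and 219 CPM of the 8 members other than Fn1. Both sums were lowest in normal medium with CH223191. Their part in the matrix values was not tested.

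Single fibroblast markers, named after their values were seen, differed in direction. The 9 that were higher with 4T1-CM in both comparisons were Pdgfrb, Thy1, Pdpn, Col5a1, Col5a2, Fbn1, Bgn, Mmp2 and Serpinf1. Of these, Bgn had 109, 90, 426 and 360 reads, Mmp2 had 11, 22, 124 and 101, and Thy1 had 0, 1, 13 and 11, so that its call with DMSO rests on the prior count. Thy1 reached 10 reads only with 4T1-CM. Lum had 3, 0, 0 and 0 reads, Fap had 3, 0, 1 and 0, and Dpt, Tcf21 and Fbln1 had at most 2 in any library. Pdgfra had 91, 49, 83 and 70 reads and did not differ by 2-fold, while Pdgfrb had 30, 14, 127 and 109. The mesothelial markers summed to at most 1.76 CPM and the epithelial markers, which include those of tumour cells, to at most 1.60 CPM. Krt19 and Muc16 had 0 reads in all 4 libraries in the first list, and Krt19 and Krt5 in the second. Smooth muscle and pericyte markers summed to 9.16, 7.04, 12.7 and 13.1 CPM, with Myh11 at 0 in all 4. Endothelial markers, mostly Vwf (1540, 1133, 491 and 409 reads), summed to 112, 81.6, 46.8 and 41.4 CPM, with Tek and Emcn at 0 in all 4. Vwf was at least 2-fold lower with 4T1-CM in both comparisons, where 3.38% of all genes were. Pecam1 (3, 1, 31 and 22) and Cdh5 (14, 10, 60 and 37) were higher in both, where 8.19% of all genes were. Tie1 was lower with DMSO alone (-1.09), Esam was higher with CH223191 alone (1.31), and Kdr stayed under 2-fold (0.23 and 0.80). Pecam1 reached 10 reads only with 4T1-CM.

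Genes with a profile like that of the fibrillar chains were listed by distance. The measure was the Euclidean distance between log2 CPM over the 4 libraries, each gene centred on its mean, from the mean profile of Col1a1, Col1a2 and Col3a1. Among the 11942 genes whose mean level reached 1 CPM, the 10 nearest other genes were Chd5, Vash1, Pla1a, Nbl1, Tppp3, Htr2a, Pde10a, Wwtr1, Bcr and Col5a1, at distances of 0.21 to 0.50, beside a median of 2.22. Col1a2, itself one of the reference chains, lay at 0.56, farther than all 10. Bcr, the most abundant of the 10, had 171, 72, 353 and 300 reads. In normal medium with CH223191, Pla1a and Wwtr1 had 3 reads, and Chd5 and Nbl1 had 5. Wwtr1 reached 10 reads only with 4T1-CM. Sparc ranked 190, Dcn 479, Tnc 485 and Fn1 725, while Col6a2 ranked 8253 and Lox 11901. The list depended on its settings: 0 of the 10 were kept with Col1a2 alone as the reference, and 2 at a mean of at least 5 CPM.

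Overlap of the members with other genes was checked. At most 2.51% of the 50-base words of a member, those of Fn1, also occurred in transcripts of another gene. Apol7d overlaps Fn1 on the opposite strand and had 5, 4, 1 and 2 reads, 8030451A03Rik overlaps Tnc and had 0, 2, 1 and 0, and Gm43921 and Gm47302, which overlap Col1a2 and Col3a1, had 0 in all 4. AC161119.1, which overlaps Lox on the opposite strand, was not analysed here. Whether the counting used strand is not given in the sources used here.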

How the data were processed

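Total RNA was extracted with TRIzol and made into NEBNext Ultra libraries, per the labels. The authors deposited raw read counts per gene for 4 libraries, with gene lengths in bases. The submitters' processing notes name HISAT2 2.0.5 and DESeq2. The counter and genome build for these libraries are not given in the sources used here, and the gene positions match GRCm38 (53499 of 54409 shared identifiers have identical coordinates in GENCODE M21). Genes that reached 10 reads in any library were scaled by TMM (edgeR 4.0.16, R 4.3.3), and log2 ratios, exact intervals and figures were made in Python 3.11.15 with numpy 2.4.6, pandas 2.3.3, scipy 1.17.1 and matplotlib 3.10.9. With 1 library per condition, no p-value was computed. The ratio and interval functions were tested on simulated data.

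The members and all lists were chosen with earlier results of these data known. Named were all 9 members, of each pathway list the 4 most abundant genes and those past 2-fold in the same direction for both solvents or both media, marker genes at 0 in every library and the 10 nearest profiles. Other genes named with reads were picked after their values were seen. Other settings tried were DESeq2 1.42.0 scaling, no scaling beyond total counts, other filters and folds, a larger prior count, only protein-coding genes, 2 other likeness settings and transcript length.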

Additional observations from a re-analysis of the deposited data

Results flagged for a closer look

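Dcn was the only member whose ratio of CH223191 to DMSO had opposite signs in the 2 media. The log2 ratio was 0.36 in normal medium, from 45 against 35 reads, and -0.20 in 4T1-CM, from 139 against 172 reads. The difference was not tested, since each condition had 1 library, and its counting interval of -1.33 to 0.19 around -0.56 holds 0.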

How the results depend on the processing

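Of 212 log2 ratios of the members under other scalings, filters, gene types and prior counts, 209 stayed within their counting interval, 3 moved and 0 reversed. All 3 were ratios of Fn1, at 1.26 for 4T1-CM with DMSO and 0.20 for CH223191 in normal medium with total counts, and at 1.33 for 4T1-CM with DMSO with at least 10 reads in every library, a filter that leaves out Lox. With total counts, the difference between media of Fn1 was 0.19 in place of 0.14. A prior count of 5 left 0 members at least 2-fold lower with CH223191 in 4T1-CM, in place of 2, and 4 in normal medium, in place of 5. At 4-fold, 2 and 3 members were higher with 4T1-CM (DMSO, CH223191), and 0 and 0 were lower with CH223191 (normal medium, 4T1-CM). Over all genes, 678 and 636 were higher and 120 and 85 lower at that fold. Of the 10 nearest profiles, 0 were kept with Col1a2 alone as the reference and 2 at a mean of at least 5 CPM. The Col1a1 to Col1a2 level by transcript length was 0.755, 0.438, 0.773 and 0.665.

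Counts over all genes also moved, with 21917 genes compared when none was filtered out, 11765 when each library had to reach 10 reads and 11895 when only protein-coding genes were used, in place of 13715. For 4T1-CM with DMSO, 1675 higher and 838 lower genes became 4635 and 2536 without a filter and 853 and 499 with at least 10 reads in every library. For 4T1-CM with CH223191, 1648 and 1078 became 4367 and 2995, and 868 and 677. For CH223191 in normal medium, 664 and 454 became 2815 and 2260, and 226 and 89, and a prior count of 5 gave 363 and 168. For CH223191 in 4T1-CM, 377 and 365 became 2555 and 2719, and 83 and 53, and a prior count of 5 gave 165 and 163. Restricted to protein-coding genes, the CH223191 counts were 364 and 258 in normal medium, and 158 and 212 in 4T1-CM. The causes were not tested. No paired analysis was possible because each condition had 1 library with no replicate number. Depth limits members with few reads in a library, such as Lox (7 in normal medium with CH223191), Col6a2 (12 in 4T1-CM with CH223191), Tnc (14) and Col3a1 (24), both in normal medium with CH223191.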
